A study of Populus tremula x Populus tremuloides with 22 samples.

Results

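The wood NAC master switches described here are 10 gene models out of the 34699 that were counted, chosen by identifier from a list of switches of the SND1 and VND type. Of these 10, 4 are of the SND1/NST type and 6 of the VND type, and they fall into 5 pairs of close copies by the poplar literature. Type and pairing could not be checked, because the files give identifiers without gene names. RNA was counted in 3-week-old stem internodes of greenhouse-grown hybrid aspen (Populus tremula x Populus tremuloides), a fast-growing poplar used as a model tree.

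NAC proteins are plant transcription factors. In Arabidopsis, NST genes including SND1 switch on the thick secondary wall of fibres, and VND genes switch on that of water-conducting vessels. Both types act largely through MYB46 and MYB83 and, with them, raise the enzymes that make cellulose, xylan and lignin of wood.

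The trees were wild type (WT, 5 libraries) or overexpressed 1 of 2 Arabidopsis genes, LBD4 or LBD11, which encode LATERAL ORGAN BOUNDARIES DOMAIN transcription factors. The series title calls the overexpression xylem-specific; the promoter is not given in the sources used here. LBD4-OE comprised lines 11 (3 libraries), 14 (2) and 17 (3), and LBD11-OE comprised lines 1, 2 and 14 (3 each). The sample titles call the last of these 14, which is followed here, whereas its genotype label has another line number. Nothing in the labels says that the libraries of a line came from different trees. The p-values therefore reflect the spread among these libraries, which may be technical, and libraries of 1 line share their transgene insertion. Libraries held 23437445 to 41969957 counts. The 5 listed secondary wall cellulose synthases, markers of wood-forming cells, stood at or above percentile 98.6 of all gene models. The percentile is of the mean level over all libraries, so these markers were abundant in the series as a whole. In bulk stem RNA, fewer cells of a type and less RNA per cell cannot be told apart. The libraries also fall into a set of 15 and a set of 7 (WT replicate 3, LBD4-OE-11 and LBD11-OE-2), between which 9 gene models on 4 chromosomes differed over 2-fold in every library. Values within each set stand beside the results for several of the genes.

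Levels of the 10 genes spanned a wide range, with 1 SND1/NST pair far above the other 8 genes. Levels are given in CPM, the count scaled to a common library size after TMM normalization, and genes are set against each other per kb of gene span, introns included, the sole length the files give. In WT, Potri.011G153300 was highest at 28.4 ± 4.28 CPM per kb (SD, n = 5), followed by Potri.001G448400 at 19.5 ± 0.568. The other SND1/NST pair followed, with Potri.002G178700 at 5.32 ± 0.244 and Potri.014G104800 at 1.64 ± 0.325 CPM per kb. Among the VND genes, Potri.012G126500 (1.26 ± 0.177) and Potri.003G113000 (1.17 ± 0.161) led, and their WT ranges overlapped each other and that of Potri.014G104800. Potri.015G127400 (0.286 ± 0.0344) and Potri.001G120000 (0.204 ± 0.0479) were lower still. In LBD11-OE, Potri.014G104800 stood at 3.63 ± 0.776 CPM per kb (SD, n = 9), with its lowest library at 2.75, above the highest library of Potri.012G126500 at 1.37.

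Too low to judge were the VND genes Potri.013G113100 and Potri.019G083600, with a median of 7 and 6.5 counts per library where 10 was asked. Potri.019G083600 did not pass the filter on low counts in the comparison of constructs. The other 8 genes are judged below, 4 of each type.

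**Figure D1:**
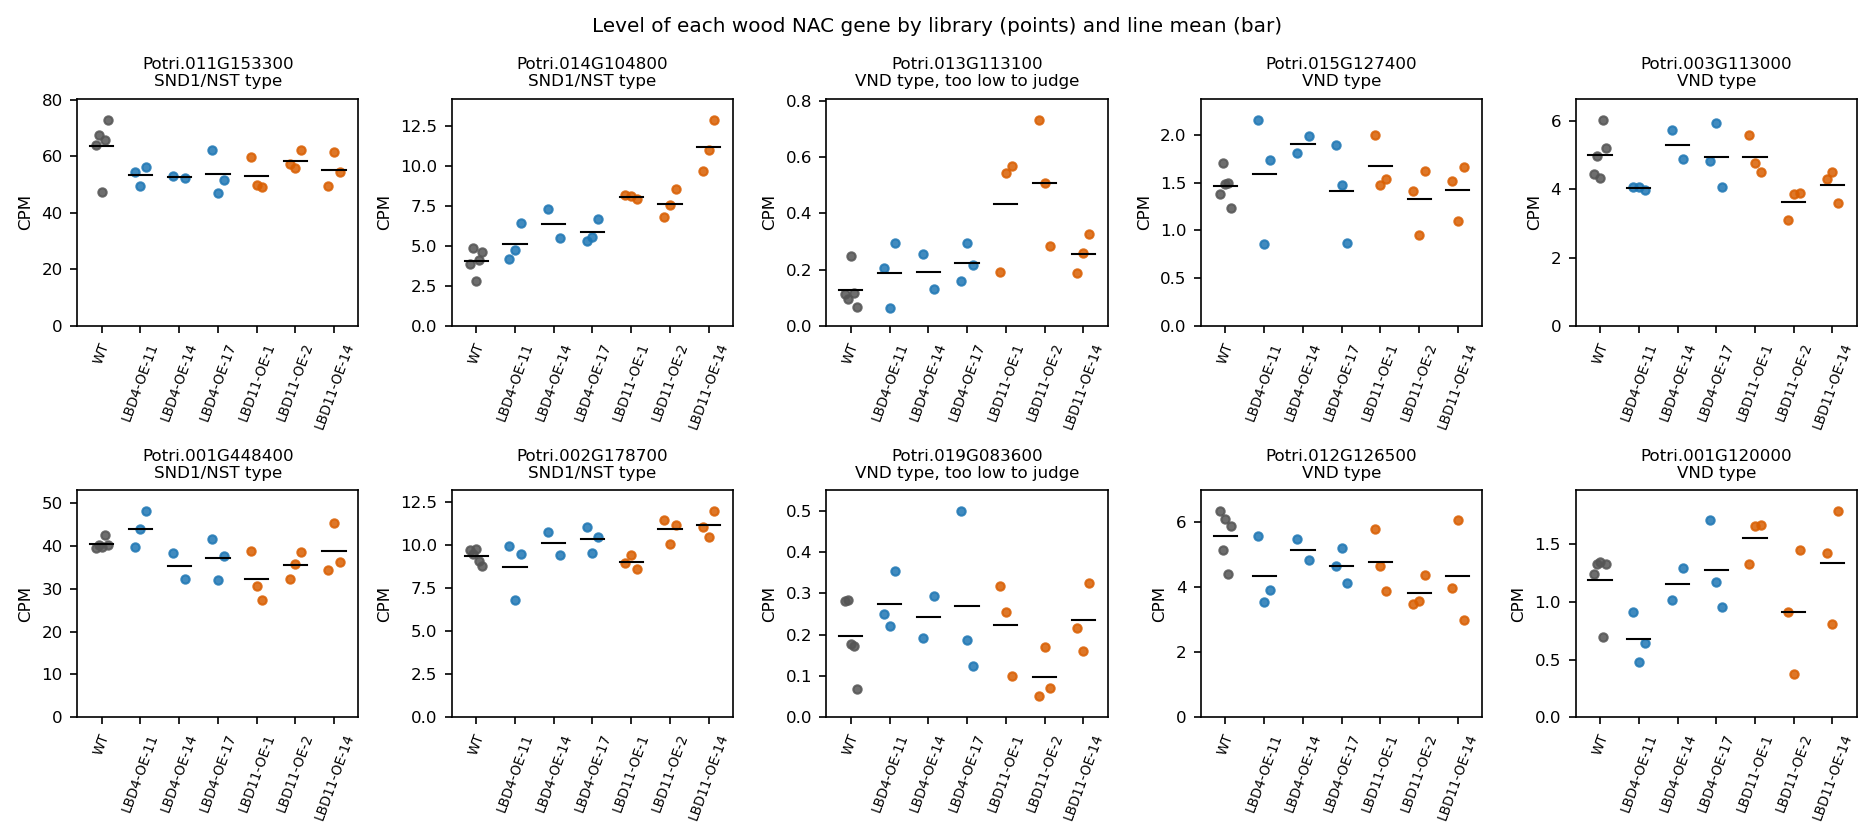
CPM (TMM-scaled) of each of the 10 genes in the 22 libraries, by line on the x axis, with each panel on its own linear scale from 0; points are libraries, bars line means, grey WT, blue LBD4-OE and orange LBD11-OE. Potri.014G104800 was at 2.80 to 4.84 CPM in WT and at 6.80 to 12.9 CPM in LBD11-OE.

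The first question is which switches differ between LBD11-OE and WT stems. Of the 8 judged genes 1 rose and 0 fell, where 16.1% of all genes tested rose and 16.3% fell. The gene that rose was the SND1/NST gene Potri.014G104800 (chromosome 14, 7020430 to 7022901, minus strand). Its level was 3.86, 4.84, 2.80, 4.13 and 4.64 CPM in WT replicates 1 to 5. It was 8.18, 8.15 and 7.92 CPM in LBD11-OE-1, 6.80, 7.55 and 8.54 CPM in LBD11-OE-2, and 9.71, 11 and 12.9 CPM in LBD11-OE-14. Every LBD11-OE library lay above every WT library, as was the case for 5.59% of all 25626 genes tested. The means were 4.05 ± 0.803 CPM (SD, n = 5) and 8.97 ± 1.92 CPM (SD, n = 9), a 2.21-fold difference with a 95% interval of 1.77 to 2.76. By edgeR's quasi-likelihood F test the log2 fold change was 1.14 ± 0.16 (SE, adjusted p = 5.77e-06), and adjusted p-values here and below are over all genes tested.

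The rise held in each line taken alone. It was 0.99 ± 0.17 on the log2 scale in LBD11-OE-1 (SE, edgeR adjusted p = 0.000234), 0.90 ± 0.17 in LBD11-OE-2 (adjusted p = 0.000673) and 1.46 ± 0.16 in LBD11-OE-14 (adjusted p = 5.83e-07), where 10.8%, 8.63% and 14% of all 26271 genes tested rose. LBD11-OE-14 had the highest levels, but the differences among the 3 lines did not pass the test (joint edgeR adjusted p = 0.25, a test that 1.36% of all genes passed). Line 14 exceeded line 1 by 0.47 ± 0.18 (adjusted p = 0.26) and line 2 by 0.56 ± 0.18 (adjusted p = 0.257). The rise was 1.14 within the larger library set and 1.42 within the smaller, which has 1 WT library assumed to vary like the other groups (adjusted p = 1.75e-05 and 0.013). It passed under each of 39 alternatives tried, between 0.95 and 1.42, among them limma voom with a random effect of line (1.11, adjusted p = 0.00012).

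With the low Potri.013G113100 included, 2 of the 9 members tested were called higher and 0 lower, where 16.1% of all genes tested were called higher and 16.3% lower in this comparison. So few members give no result about the switches as a group, and 1 of the 2 entered the test only through the group where it was high. Potri.013G113100 (chromosome 13, 12168475 to 12172288, minus strand) had 4, 4, 7, 4 and 2 counts in the WT libraries, 2 to 11 in LBD4-OE and 6 to 28 in LBD11-OE. It reached the filter's minimum of 0.309 CPM in 5 LBD11-OE libraries and 0 libraries of the other groups. Summed over libraries it had 21 counts in WT and 115 in LBD11-OE, a depth-scaled ratio of 3.29 with an exact 95% interval of 2.05 to 5.51 that covers counting error only. The edgeR log2 fold change was 1.65 ± 0.43 (SE, adjusted p = 0.00473). It was tested in 30 of 39 alternatives and called in 28 of them. Those fits draw on the same counts and are no separate support. In the lines taken alone the adjusted p was 0.0231 in LBD11-OE-1, 0.0113 in LBD11-OE-2 and 0.204 in LBD11-OE-14. Its copy Potri.019G083600 (chromosome 19, 12343299 to 12347217, minus strand) had 35 counts in WT, 70 in LBD4-OE and 52 in LBD11-OE, and its LBD11-OE to WT ratio was 0.892 (0.57 to 1.41).

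**Figure D2:**
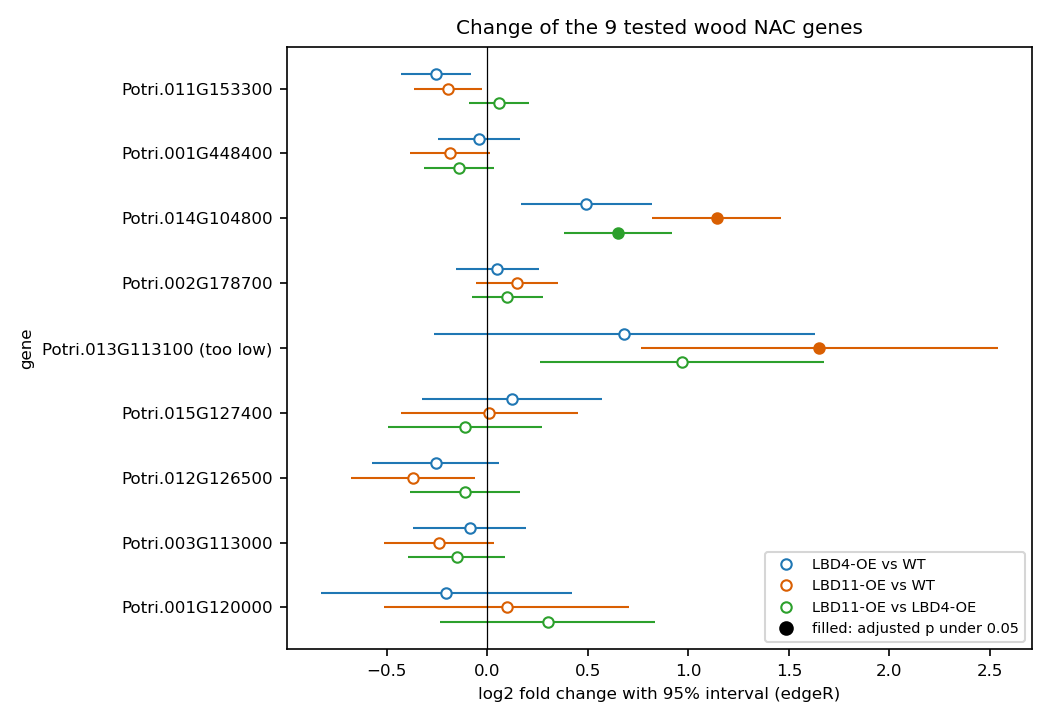
Log2 fold change (x axis, edgeR, bars are 95% intervals) of the 9 genes tested in the 3 comparisons of constructs; filled points passed an adjusted p of 0.05 over all genes. Potri.014G104800 at 1.14 is the judged gene that passed for LBD11-OE against WT. Potri.013G113100 at 1.65 rests on few counts and passed the filter only through its LBD11-OE libraries.

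Under LBD4, 0 of the 9 members tested passed edgeR's test, where 4.28% of all genes did. At an unadjusted p under 0.05 there was 1 member higher and 1 lower, where 11.7% of all genes were higher and 10.1% lower, and DESeq2 called 1 member. The member higher was Potri.014G104800 again, at 4.19 to 7.28 CPM (median 5.52, n = 8). Of the LBD4-OE libraries 6 of 8 lay above every WT library, so the groups overlapped. The mean was 5.71 ± 1.02 CPM (SD), and the log2 fold change against WT was 0.49 ± 0.16 (SE, edgeR adjusted p = 0.0694), a fold of 1.41 with a 95% interval of 1.12 to 1.76. The DESeq2 adjusted p was 0.0355, and over 39 alternatives the adjusted p ran from 0.0135 to 0.211, with 0.0375 without LBD4-OE-11 replicate 1. Within the larger library set the log2 difference was 0.47 and within the smaller 0.86 (edgeR adjusted p = 0.117 and 0.128). By line the values were 0.33 ± 0.17, 0.65 ± 0.19 and 0.52 ± 0.17 in LBD4-OE-11, LBD4-OE-14 and LBD4-OE-17 (adjusted p = 0.309, 0.0993 and 0.0998). No member passed in any LBD4-OE line alone, where 1.94%, 0.712% and 2.62% of all genes did, nor in the joint test of the 3 lines, which 0.194% passed. Both constructs were compared with the same 5 WT libraries.

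The constructs were also compared directly. Potri.014G104800 was higher in LBD11-OE than in LBD4-OE by 0.65 ± 0.13 on the log2 scale (SE, edgeR adjusted p = 0.000794), 1.57-fold with an interval of 1.30 to 1.89. Of the 9 LBD11-OE libraries, 8 lay above the highest LBD4-OE library. It was the 1 member called of 9, where 8.08% of all genes were called higher and 8.88% lower. Within the smaller library set, 3 libraries of 1 line against 3 of another, the difference was 0.56 (adjusted p = 0.196), and within the larger set it was 0.67 (adjusted p = 0.00196).

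The close copy of this gene, Potri.002G178700 (chromosome 2, 13982102 to 13983865, minus strand), did not pass in any comparison. It stood at 9.72, 9.51, 9.80, 9.07 and 8.80 CPM in WT. It ranged from 6.80 to 11.1 CPM in LBD4-OE (median 9.75) and from 8.62 to 12 CPM in LBD11-OE (median 10.5), so the 3 groups overlapped. The log2 fold change for LBD11-OE against WT was 0.15 ± 0.10 (SE, edgeR adjusted p = 0.265), with a 95% interval of the fold from 0.962 to 1.28. That of Potri.014G104800 began at 1.77. Within lines, the levels of the copies varied almost without relation across the 22 libraries (Pearson r = 0.067 after line means were taken out).

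The balance within the pair was computed from the same counts. Its differences follow from the levels of both copies given above and are not separate support. Potri.014G104800 held 30.0% ± 4.98 of the pair's counts in WT (SD, n = 5), 37.0% ± 4.1 in LBD4-OE (n = 8) and 46.1% ± 4.5 in LBD11-OE (n = 9). Shares were 28.4, 33.7, 22.2, 31.3 and 34.5% in the WT libraries, 29.6 to 41.2% in LBD4-OE (median 37.9%) and 37.1 to 51.7% in LBD11-OE (median 46.6%). The LBD11-OE libraries thus all lay above WT and overlapped LBD4-OE. The share was 16 points higher in LBD11-OE than in WT (two-sided exact permutation test, p = 5e-04, the smallest it can give, adjusted p = 0.00679 over 15 tests of 5 pairs). It was 9.03 points higher in LBD11-OE than in LBD4-OE (exact permutation p = 0.000905, adjusted p = 0.00679). Between LBD4-OE and WT it differed by 7.0 points (exact permutation p = 0.0171, adjusted p = 0.0587). Within the larger library set these differences were 16.6, 11.5 and 5.02 points (adjusted permutation p = 0.0357, 0.0325 and 0.149), and within the smaller set, with 1 WT library and no test, 18.9, 4.02 and 14.9 points. Reads that match both copies may have been dropped or split in counting, and the shares are uncertain to that extent.

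**Figure D3:**
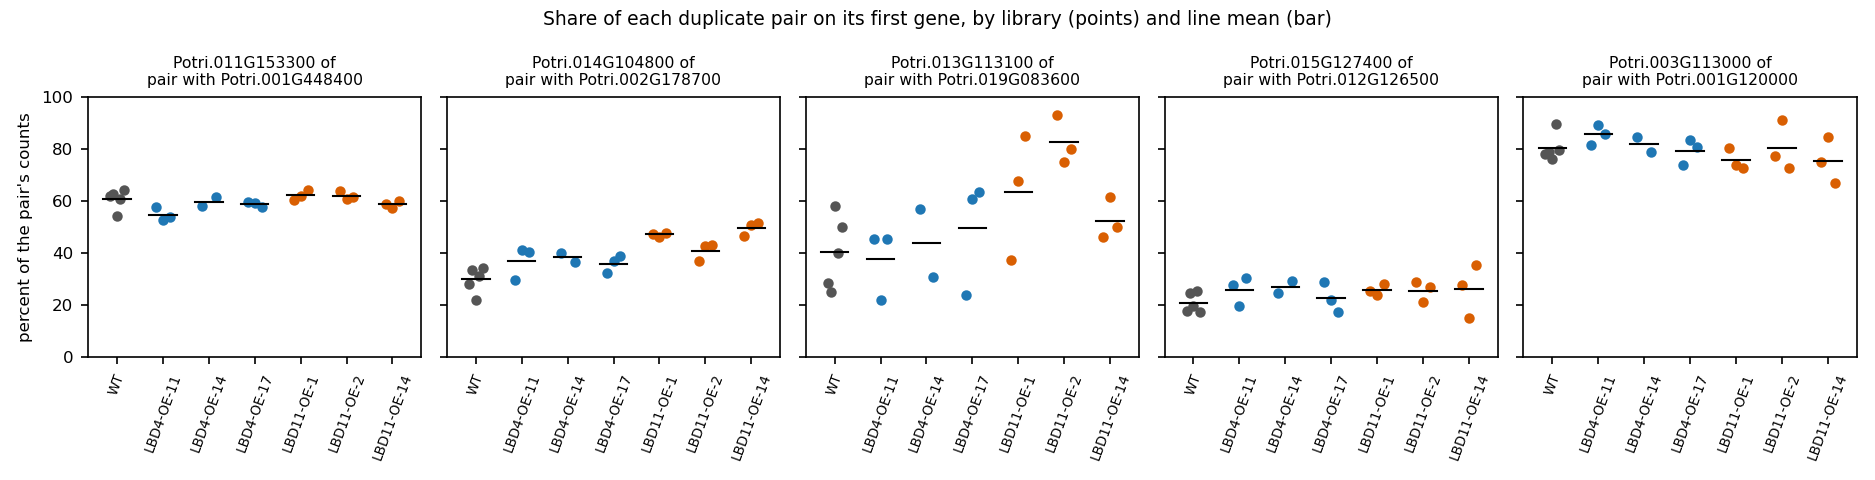
Percent of each pair's counts (y axis, 0 to 100) that fell on the first named gene, by library (points) and line (bar is the mean), in the 5 pairs; grey is WT, blue LBD4-OE and orange LBD11-OE. The share of Potri.014G104800 was 30.0% in WT, 37.0% in LBD4-OE and 46.1% in LBD11-OE.

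In the other 4 pairs no share passed, with adjusted permutation p-values of 0.0587 or more. The first of them, Potri.011G153300 over its sum with Potri.001G448400, was 60.9% ± 3.82 in WT (SD, n = 5), 57.7% ± 2.98 in LBD4-OE (SD, n = 8) and 61.1% ± 2.16 in LBD11-OE (SD, n = 9). LBD11-OE exceeded LBD4-OE by 3.39 points (exact permutation p = 0.015, adjusted p = 0.0587). In the pair too low to judge, Potri.013G113100 held 40.4% ± 14.1 in WT, 43.7% ± 16.5 in LBD4-OE and 66.3% ± 18.9 in LBD11-OE, a difference of 25.9 points between LBD11-OE and WT (exact permutation p = 0.0235, adjusted p = 0.0587) and of 22.6 points between LBD11-OE and LBD4-OE (exact permutation p = 0.0217, adjusted p = 0.0587). Potri.015G127400 held 21% ± 3.86 of its pair in WT and 26% ± 5.63 in LBD11-OE, and Potri.003G113000 held 80.5% ± 5.27 and 77.3% ± 7.27 of its pair.

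The most abundant switch, Potri.011G153300 (chromosome 11, 18029556 to 18031795, plus strand), lay near the threshold, and single libraries decided its call. It was at 64.1, 67.7, 47.5, 65.7 and 73.0 CPM in WT replicates 1 to 5, at 47.1 to 62.1 CPM in LBD4-OE (median 52.7) and at 49.2 to 62.2 CPM in LBD11-OE (median 55.8). WT replicate 3 lay within the transgenic range, and the other 4 WT libraries lay above every transgenic library. With all libraries the log2 fold change was -0.26 ± 0.08 in LBD4-OE (SE, edgeR adjusted p = 0.0784) and -0.20 ± 0.08 in LBD11-OE (adjusted p = 0.0714). Without WT replicate 3 these were -0.34 (adjusted p = 0.0149) and -0.28 (adjusted p = 0.00482), and within the larger library set they were -0.35 (adjusted p = 0.0355) and -0.32 (adjusted p = 0.00594). The LBD4-OE difference also passed without LBD4-OE-17 replicate 1 (adjusted p = 0.0491), and that of LBD11-OE without LBD11-OE-2 replicate 3 (adjusted p = 0.0487). Within the smaller set, where WT replicate 3 is the sole control, they were 0.15 and 0.27 (adjusted p = 0.546 and 0.209). Each difference was called in 4 of 39 alternatives. With the library set in the model the edgeR adjusted p was 0.0663 for LBD4-OE and 0.077 for LBD11-OE. With line as a random block in limma voom it was 0.225 and 0.177. The lines had similar values, from -0.25 to -0.27 in LBD4-OE and from -0.12 to -0.27 in LBD11-OE, and none passed alone.

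Its copy Potri.001G448400 (chromosome 1, 47463534 to 47465606, minus strand) ranged from 39.5 to 42.4 CPM in WT, from 32.1 to 48.1 CPM in LBD4-OE and from 27.4 to 45.4 CPM in LBD11-OE. Of the LBD11-OE libraries, 8 of 9 lay below every WT library and 1 above. The log2 fold change was -0.19 ± 0.10 in LBD11-OE (SE, edgeR adjusted p = 0.144) and -0.04 ± 0.10 in LBD4-OE (adjusted p = 0.845). In LBD11-OE-1 alone it was lower by -0.33 ± 0.11 (adjusted p = 0.0446), where 10.7% of all genes fell, and this call was kept in 20 of 35 alternatives and lost without any 1 of the 5 WT libraries. This pair varied together within lines, with r = 0.594 between the copies, whereas the median over the 45 pairings of the 10 genes was 0.114. The highest r was 0.682, between Potri.002G178700 and Potri.015G127400, which are not copies. In the other pairs of copies r ran from -0.356 to 0.194.

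The VND genes showed no call between constructs among the 4 that could be judged. Potri.012G126500 (chromosome 12, 14286581 to 14291012, minus strand) was at 6.34, 5.15, 6.09, 4.42 and 5.87 CPM in WT and at 2.99 to 6.07 CPM in LBD11-OE (median 3.97), with 6 of 9 LBD11-OE libraries below every WT library. Its log2 fold change was -0.37 ± 0.15 in LBD11-OE (SE, edgeR adjusted p = 0.0609, called in 5 of 39 alternatives) and -0.26 ± 0.15 in LBD4-OE (adjusted p = 0.34). For LBD11-OE the adjusted p was 0.0364 without WT replicate 4, 0.0251 without LBD11-OE-1 replicate 1 and 0.0205 without LBD11-OE-14 replicate 2. Within the larger library set the log2 difference was -0.26 and within the smaller -0.71 (adjusted p = 0.284 and 0.137). Its copy Potri.015G127400 (chromosome 15, 13894215 to 13899329, minus strand) was at 1.46 ± 0.176 CPM in WT, 1.60 ± 0.496 in LBD4-OE and 1.47 ± 0.307 in LBD11-OE, and the 95% interval of its LBD11-OE to WT fold ran from 0.743 to 1.36.

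Potri.003G113000 (chromosome 3, 13554999 to 13559270, minus strand) was at 5.0 ± 0.688 CPM in WT, 4.70 ± 0.789 in LBD4-OE and 4.24 ± 0.72 in LBD11-OE. In LBD11-OE-2 it was at 3.11, 3.86 and 3.88 CPM, below the lowest WT library at 4.32, a separation not counted over all genes. The log2 difference there was -0.47 ± 0.16 (SE, edgeR adjusted p = 0.0417), where 7.72% of all genes fell, and the call was kept in 22 of 34 alternatives and lost without any 1 of the 3 libraries of that line or without WT replicate 2, 4 or 5. In LBD11-OE-1 the value was -0.016 and in LBD11-OE-14, where 12.7% of all genes fell, it was -0.27 (adjusted p = 0.957 and 0.2), and the 3 lines did not pass the joint test (adjusted p = 0.443). Potri.001G120000 (chromosome 1, 9764200 to 9770029, plus strand) was at 1.19 ± 0.279 CPM in WT, 1.02 ± 0.383 in LBD4-OE and 1.27 ± 0.472 in LBD11-OE, with an interval of its LBD11-OE to WT fold from 0.701 to 1.63. With a spread this wide, changes of this size were not detectable for it. The library sets gave opposite signs for Potri.001G120000. For LBD11-OE against WT the log2 difference was 0.33 within the larger set and -0.59 within the smaller. For LBD4-OE against WT these values were 0.10 and -1.01, and the smaller set has a single WT library.

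Summed over a type, the levels overlapped between groups. The 4 SND1/NST genes together had 117 ± 10.4 CPM in WT, 108 ± 9.05 in LBD4-OE and 110 ± 11.1 in LBD11-OE, and the 6 VND genes had 13.5 ± 0.356, 12.4 ± 1.98 and 11.9 ± 1.83 CPM (SD, n = 5, 8 and 9). Potri.014G104800 supplied 3.07% ± 0.414 of the counts of all 10 genes in WT and 7.34% ± 1.36 in LBD11-OE. The median log2 fold change over the 9 members tested was 0.0096 for LBD11-OE and -0.0429 for LBD4-OE against WT, beside medians of 0.0019 and -0.0018 over all genes tested.

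Genes listed downstream of the switches moved in both directions, and their lists come from general knowledge of the poplar literature that the files cannot check, so members are not named. Of the 6 listed MYB regulators of the MYB46/83 and MYB103 type, 0 rose and 3 fell in LBD11-OE, where 16.1% of all genes rose and 16.3% fell, with a median log2 fold change of -0.23 and a range of -0.59 to 0.42. Of the 5 secondary wall cellulose synthases 3 rose and 0 fell (median 0.35). Of 12 lignin monomer enzymes 4 rose and 0 fell (median 0.12), and of 4 xylan synthesis genes 1 rose and 0 fell (median 0.20). In LBD4-OE 1 of the MYB genes fell, and 0 genes of the other lists passed, where 4.28% of all genes did. Taken alone, LBD4-OE-11 had 1 lignin enzyme lower, LBD4-OE-14 had 1 xylan gene higher, and LBD4-OE-17 had 1 lignin enzyme and 1 MYB gene lower. In these lines 1.94%, 0.712% and 2.62% of all genes passed in either direction. The calls were not even across lines. In LBD11-OE-14 4 of 5 cellulose synthases, 6 of 12 lignin enzymes and 4 of 4 xylan genes rose, where 14% of all genes did. In LBD11-OE-1 these counts were 2, 2 and 1, where 10.8% of all genes rose, and in LBD11-OE-2 they were 2, 3 and 0, where 8.63% did. Of the 6 MYB genes 2 fell in LBD11-OE-1, 2 in LBD11-OE-2 and 1 in LBD11-OE-14, where 10.7%, 7.72% and 12.7% of all genes fell. LBD11-OE-14 was also the line with the highest Potri.014G104800, and whether the 2 are related was not tested.

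**Figure D4:**
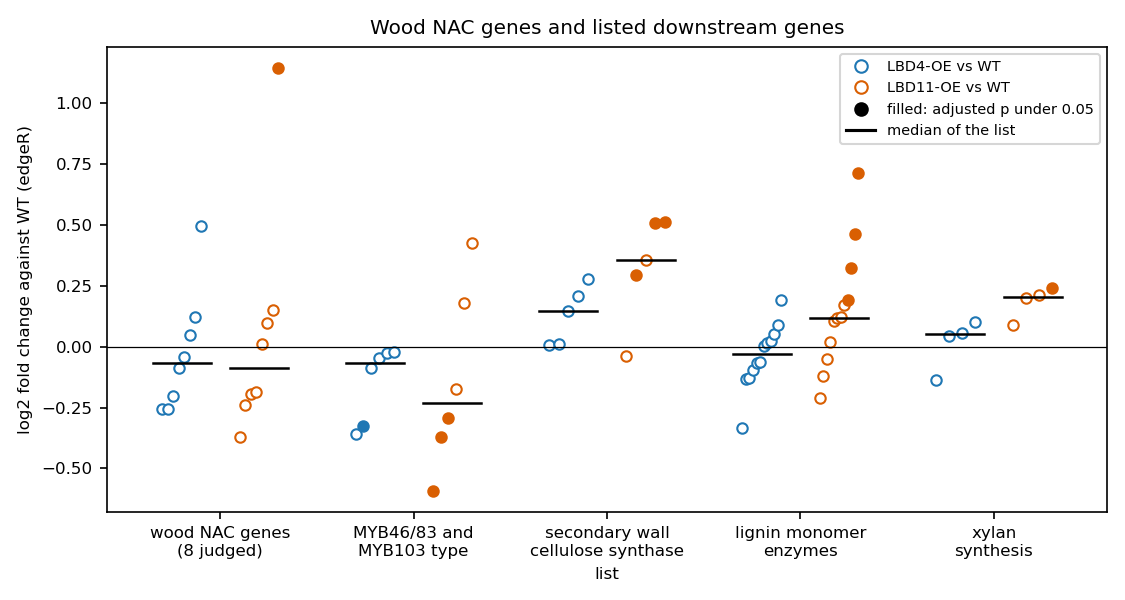
Log2 fold change against WT (y axis, edgeR) of the 8 judged switches and of the 4 lists of downstream genes, blue for LBD4-OE and orange for LBD11-OE; each point is a gene, filled where the adjusted p was under 0.05, and the bar is the list's median. The LBD11-OE medians are -0.23 for the MYB list and 0.35 for the cellulose synthases.

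The genes most like Potri.014G104800 over the 22 libraries, by Pearson correlation of log2(CPM + 0.5) among 22690 genes with a median of at least 1 CPM, were Potri.016G120100 (r = 0.955), Potri.008G002500 (0.939), Potri.017G075600 (0.937), Potri.010G055400 (0.937) and Potri.010G233200 (0.936). All 5 were higher in LBD11-OE, by 0.74 to 1.49 on the log2 scale, and after line means were taken out their r fell to between 0.629 and 0.73. This gene was picked for the list after its values were seen. The libraries share the group differences, so these values describe likeness only. For Potri.011G153300, with the highest median CPM of its type over all libraries, the most alike gene was Potri.001G452400 (r = 0.796, the same after line means were taken out), and the next 4 were Potri.013G089200, Potri.004G077700, Potri.001G009700 and Potri.005G232400 (r = 0.774 to 0.751). For Potri.012G126500, with the highest median CPM of the VND genes over all libraries, they were Potri.001G305600 (r = 0.818), Potri.007G015400, Potri.002G057700, Potri.005G245000 and Potri.018G056100 (r = 0.796 to 0.724).

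No member overlapped another gene model in the files, on either strand. Of the 6 gene models that flank Potri.014G104800, 3 were tested and 0 passed for LBD11-OE against WT by edgeR, with log2 fold changes between -0.12 and 0.26. Around Potri.012G126500, which did not pass, 3 of the 4 flanking models tested rose. The nearest of them (Potri.012G126400, 3871 bp away) rose by 1.22 ± 0.07 (SE, edgeR adjusted p = 1.58e-11). In this comparison 16.1% of all genes tested rose and 16.3% fell. Flanking models of other members passed too, in both directions, among them Potri.015G127200 at 0.50 and Potri.002G179000 at -0.49.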

How the data were processed

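Poly(A) RNA of 22 stem internode libraries was sequenced in paired reads, per the labels. The authors deposited 1 file per library with raw read counts per gene from HTSeq, per the labels, with coordinates and no gene names. The submitters' processing notes also name Trimmomatic, HISAT2, Cufflinks and MultiQC. Versions, genome build, strand setting and treatment of multiply mapped reads are not given in the sources used here, and coordinates are printed as in the files. Reads of a hybrid aspen were counted on Potri identifiers, so alleles and close copies may be undercounted.

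Counts were tested in edgeR 4.0.16 (R 4.3.3; TMM, filterByExpr with a minimum count of 10 and total of 15, robust quasi-likelihood F test) in a model of 3 constructs (25626 genes) and one of WT and 6 lines (26271 genes), with Benjamini-Hochberg adjustment over all genes and a threshold of 0.05. The edgeR test of LBD11-OE against WT in the model of constructs was tried on simulated counts with independent libraries and no line effect. The model of lines and the permutation tests were not tried in this way. Pair shares were compared with exact permutation tests. A gene was too low to judge at a median under 10 counts or if filtered. Replicate pairs of a line differed by more than counting noise (chi-square per degree of freedom at least 5.78 over 26 pairs). All 10 members are named, with the 5 genes most like the most abundant member of each type. Printing single downstream genes was left out for want of names, and no sequence was used. Members and lists were chosen with earlier results of these data known. DESeq2 1.42.0, limma 3.58.1 and other settings were tried as alternatives.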

Additional observations from a re-analysis of the deposited data

Results flagged for a closer look

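Potri.014G104800 was higher in LBD11-OE than in LBD4-OE by 0.65 on the log2 scale in the direct test (edgeR adjusted p = 0.000794). Its share of the pair with Potri.002G178700, computed from the same counts, was 9.03 points higher under LBD11 (two-sided exact permutation test, adjusted p = 0.00679). The remaining values are single libraries far from the others of their group, among 45 groups examined, of which chance flags about 1 in 20. Potri.001G448400 was highest in WT replicate 4 at 42.4 CPM, next to 40.1 CPM. Potri.002G178700 was lowest in LBD4-OE-11 replicate 2 at 6.80 CPM, next to 9.45 CPM. The low gene Potri.013G113100 was highest for WT in replicate 3 at 0.248 CPM, which is 7 counts. Potri.001G120000 was lowest for WT in replicate 4 at 0.693 CPM, next to 1.24 CPM, and the share of Potri.003G113000 in that pair was accordingly highest there, at 89.7% next to 79.7%.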

How the results depend on the processing

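Potri.014G104800 kept its rise in LBD11-OE under all 39 alternatives. Its call between constructs was lost within the smaller library set (0.56, adjusted p = 0.196), and its difference between LBD4-OE and WT passed with DESeq2 (0.4912), without line LBD11-OE-14 (0.491), with the library set in the model (0.5617) and without LBD4-OE-11 replicate 1 (0.5438), within a range of 0.3888 to 0.5664 when single libraries were left out. Counts of members called for LBD11-OE against WT were 1 without line LBD11-OE-2 or LBD11-OE-14 and with the replicate block, and 1 to 3 with single libraries left out (3 without WT replicate 3, 1 without LBD11-OE-1 replicate 2). Of all genes, 7634 of 25489 and 6316 of 25494 were called without those lines and 6370 of 25626 with the replicate block. The main fit called 8281 of 25626, and fits with single libraries left out called 7059 to 8519. Without line LBD11-OE-2 or LBD11-OE-14, or without LBD11-OE-1 replicate 2, Potri.013G113100 did not pass the filter and was not tested. With the replicate block it was tested and not called (edgeR adjusted p = 0.0531). For LBD4-OE against WT the count was 1 with DESeq2, without line LBD11-OE-14 and with the library set in the model, each time Potri.014G104800. Of all genes, 1952 of 24631, 1035 of 25494 and 2305 of 25626 were called there. The count was also 1, but for Potri.011G153300, without WT replicate 3 plus LBD4-OE-11 replicate 1 and within the larger set. In these fits 671 of 25717 and 599 of 25487 genes were called. With single libraries left out the count was 0 to 1, where 439 to 1549 genes were called. For LBD11-OE against LBD4-OE the count of members was 2 with the library set in the model, where 4940 of 25626 genes were called. With single libraries left out it was 1 to 2, where 3750 to 5008 genes were called. Of the pair shares 2 passed, and 2 to 6 did with single libraries left out, 6 without LBD11-OE-14 replicate 1 and 4 without LBD4-OE-17 replicate 1 or LBD11-OE-1 replicate 1. With single libraries left out, the share of Potri.014G104800 in LBD4-OE exceeded WT by 5.043 to 8.124 points. The causes of the other changes were not tested.

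Signs turned for values that did not pass. For LBD11-OE against WT, Potri.011G153300 was at 0.2701 within the smaller set. Potri.015G127400 was at -0.0206 with limma voom, -0.0234 once line was added as its random block, -0.0868 without line LBD11-OE-1, -0.1882 within the smaller set, -0.0779 with the replicate block and -0.0553 to 0.0738 with single libraries left out. Potri.001G120000 was at -0.0746 without line LBD11-OE-1, -0.5874 within the smaller set, -0.0663 with the replicate block and -0.0478 to 0.2145 with single libraries left out. For LBD4-OE against WT within the smaller set, Potri.011G153300 was at 0.1491, Potri.001G448400 at 0.1293, Potri.002G178700 at -0.1844 and Potri.013G113100 at -0.3995. Without line LBD4-OE-17 Potri.001G448400 was at 0.0021 and Potri.002G178700 at -0.0137, and without line LBD4-OE-11 Potri.003G113000 was at 0.0243 and Potri.001G120000 at 0.0553. Potri.001G120000 was at 0.1031 within the larger set. For LBD11-OE against LBD4-OE, Potri.002G178700 was at -0.0202 within the larger set.

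Replicate numbers did not pair the libraries: deviations of libraries with the same number correlated with a median r of -0.009 over 57 pairs, beside 0.002 for other pairs. With the replicate block, calls of members in single lines went from 7 to 3, all of Potri.014G104800, and Potri.003G113000 in LBD4-OE was at 0.0216. A model with library set and fits within the smaller set were not run for single lines, where line and set cannot be told apart. Depth limits Potri.013G113100 and Potri.019G083600 above all.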
